A study of Mus musculus with 23 samples.

Results

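The genes for the proteins of the mitochondrial ribosome were followed in 23 RNA-seq libraries of whole mouse hippocampus. Members were the genes whose symbol is Mrpl (large subunit series) or Mrps (small subunit series) followed by a number, without the names that contain -ps, which mark pseudogenes. That gave 78 of the 52636 genes counted, after 5 such names were dropped. Of the 78 members, 51 belong to the large subunit and 26 to the small subunit. The remaining member, Mrps36, is named as a ribosomal protein but is now known as a component of the 2-oxoglutarate dehydrogenase complex. After a filter on low counts, 72 members were tested.

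The libraries came from P301S mice in normoxia (5 libraries), WT mice in normoxia (6), P301S mice in hypoxia (6) and WT mice in hypoxia (6). P301S is a tau mutation of familial frontotemporal dementia, carried here as a transgene, and the title of the series gives the exposure as chronic intermittent hypoxia. All groups shared a mixed background of C57Bl6 and Balbc. The sources used here give neither the P301S line and the promoter of its transgene, nor the hypoxia regimen, nor the age and sex of the mice. Whether every library is a different mouse is not labelled, and the p-values below cover the spread among libraries, which may be technical.

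Mitochondria keep a small genome of their own, and its 13 protein genes encode core subunits of the respiratory complexes and of ATP synthase. The mitoribosome translates those messages inside the organelle. Its RNAs come from the mitochondrial genome, whereas its proteins are encoded in the nucleus, made in the cytosol and imported. Many of these proteins descend from bacterial ribosomal proteins and others are found in mitochondria only. Promoters of nuclear genes for mitochondrial proteins often carry binding motifs of NRF1, of ETS factors such as GABPA, and of YY1. Hippocampal neurons draw most of their ATP from oxidative phosphorylation.

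The promoters of 5 members are printed because their genes were lower in P301S mice in normoxia and because they show each of those motifs and a case with none. The sequences are from RefSeq, assembly GRCm38.p6, and run from 250 bases before to 50 bases after the start of the gene, 5′ to 3′ on the strand of the gene. Capitals mark the motifs found by a search of both strands for GCGCANGCG (NRF1), ACTTCCGG (ETS) and AANATGGCG (YY1), where N is any base. RefSeq's start can differ from that of the counted gene: it lies 7979 bases inside the counted gene body for Mrps24 and at most 15 bases away for the other 4. Mrps26 lies on the plus strand at chr2:130563507-130563806 and holds an ETS motif at base -15 and NRF1 motifs at bases -2 and 5, counted from the start. Its NRF1 motifs overlap each other. Mrpl57 is on the plus strand at chr14:57825989-57826288, with an NRF1 motif at base -57. Mrpl43 is on the minus strand at chr19:45006393-45006692, with an ETS motif in reverse orientation at base -12. Mrps24 is on the minus strand at chr11:5707652-5707951, with a YY1 motif at base 37, past RefSeq's start. Mrps12 is on the minus strand at chr7:28741772-28742071 and holds none of the 3 motifs as spelled.
Mrps26: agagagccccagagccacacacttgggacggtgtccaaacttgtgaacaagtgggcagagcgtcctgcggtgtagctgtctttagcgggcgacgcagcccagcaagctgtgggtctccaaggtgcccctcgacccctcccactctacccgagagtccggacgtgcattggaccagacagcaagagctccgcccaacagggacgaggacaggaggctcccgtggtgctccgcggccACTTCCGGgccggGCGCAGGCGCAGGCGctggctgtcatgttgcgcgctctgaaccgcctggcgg
Mrpl57: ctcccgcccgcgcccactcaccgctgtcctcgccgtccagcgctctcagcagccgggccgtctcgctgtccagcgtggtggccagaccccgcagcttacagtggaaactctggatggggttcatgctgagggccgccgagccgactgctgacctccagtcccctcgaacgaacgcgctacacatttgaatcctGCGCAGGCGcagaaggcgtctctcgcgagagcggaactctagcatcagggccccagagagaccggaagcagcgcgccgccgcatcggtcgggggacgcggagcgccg
Mrpl43: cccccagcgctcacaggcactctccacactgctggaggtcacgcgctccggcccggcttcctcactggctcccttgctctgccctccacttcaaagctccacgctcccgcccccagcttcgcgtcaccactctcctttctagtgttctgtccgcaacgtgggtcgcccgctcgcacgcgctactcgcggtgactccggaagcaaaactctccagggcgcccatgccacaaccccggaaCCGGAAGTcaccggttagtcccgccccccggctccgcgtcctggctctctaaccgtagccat
Mrps24: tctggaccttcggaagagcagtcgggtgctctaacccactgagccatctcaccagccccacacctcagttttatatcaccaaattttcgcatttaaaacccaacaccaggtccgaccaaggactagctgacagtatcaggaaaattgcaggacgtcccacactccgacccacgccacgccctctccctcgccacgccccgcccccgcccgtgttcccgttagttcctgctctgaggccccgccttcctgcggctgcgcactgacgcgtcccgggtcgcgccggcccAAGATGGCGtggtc
Mrps12: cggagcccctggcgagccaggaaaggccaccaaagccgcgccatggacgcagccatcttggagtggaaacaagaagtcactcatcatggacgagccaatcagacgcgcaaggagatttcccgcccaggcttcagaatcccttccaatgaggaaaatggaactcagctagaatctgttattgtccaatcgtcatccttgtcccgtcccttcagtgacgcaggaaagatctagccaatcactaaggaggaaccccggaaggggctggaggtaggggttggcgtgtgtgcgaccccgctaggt

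By symbol, 69 of the 78 members matched a promoter in that table. At least 1 of the 3 motifs was present in 36 of the 69 (52.2%), against 22.5% of 12571 tested genes with a promoter and 12.7% of all 27025 genes with one. A gene was counted if any of its listed promoters held the motif, and 3 members had more than 1 promoter. The NRF1 motif was found in 23.2% of the 69 members, against 12.8% of those tested genes. The ETS motif was found in 17.4% against 7.58%, and the YY1 motif in 15.9% against 4.81%. Members' promoters were richer in G and C, with a median over members of 58%, against 52.75% over all genes with a promoter. These matches describe letters in a window and were not tested as binding sites. A motif was present in 9 of the 14 members with a promoter that were lower in P301S mice in normoxia (64.3%). It was present in 25 of the 50 other tested members with a promoter (50%).

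Levels are given as CPM, the counts of a gene for each M (mega) of counts in its library, with library sizes scaled by TMM factors. Because counts grow with length, levels of different genes are compared only per kilobase (kb), and the order depends on which length is used. Per kb of annotated exon, averaged over all libraries, Mrpl41 was highest at 30.5 CPM per kb, followed by Mrps21 at 28.6, Mrpl10 at 25.6 and Mrps15 at 22.4 CPM per kb. On that scale Mrps18a was lowest at 1.46 CPM per kb, below Mrps23 at 1.85, Mrps30 at 2.21 and Mrps35 at 2.36 CPM per kb. Read pairs that overlap another gene are not counted, and Rsph9 covers 38.4% of the gene body of Mrps18a. Reads in introns were counted too, and per kb of gene body the order was another one. Mrpl41 again came first, at 27.6 CPM per kb, but Mrpl43 at 15.8, Mrpl34 at 10.2 and Mrps12 at 9.06 CPM per kb followed, and Mrps21 stood at 2.38. The lowest members per kb of gene body were Mrps28 at 0.053, Mrps27 at 0.29 and Mrps18a at 0.30 CPM per kb. Mrpl34, Mrps27 and Mrps28 were named after their values were seen. Mrps18a and Mrps30 carry small-subunit names but sit in the large subunit of the mammalian mitoribosome.

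The 6 members that the filter removed had no count in any library. They were Mrpl17, Mrpl2, Mrpl33, Mrpl40 and Mrpl53 of the large subunit and Mrps34 of the small subunit. Other annotated genes cover 99.996% of the gene body of Mrpl33 and 100% of the other 5, and the counting tool drops read pairs that overlap more than 1 gene. Their zeros therefore say nothing about their expression. Partial cover of over 50% also affects Mrps6 (57.6%, by Slc5a3 and Gm16310), Mrpl3 (56.7%) and Mrpl12 (50.4%), whose counts come from the uncovered part alone. None of these 3 was called with all libraries in the fit, and Mrpl12 was called lower in P301S normoxia without P301S normoxia replicate 1 and without WT normoxia replicate 1.

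Libraries held 19.1 to 25.8 M counts each. Prn, a transcript annotated at the prion protein locus, ran from 2.56 to 5.79 CPM in P301S libraries of both conditions, against 0.0413 to 0.400 CPM in WT libraries, so every library matched its genotype label at this locus. The pseudogene Lamr1-ps1 had counts in every P301S library and none in any WT library. Mouse Mapt averaged 713 ± 41.6 CPM in P301S normoxia and 684 ± 35.3 CPM in WT normoxia (SD, n = 5 and 6), and does not report on a human transgene. Choroid plexus markers varied between libraries far more than the members did. The summed level of 14 of them ran from 1150 to 5336 CPM in P301S normoxia, against 263 to 5535 CPM in WT normoxia, and from 287 to 3967 CPM in P301S hypoxia, against 306 to 4755 CPM in WT hypoxia. Kcnj13 of choroid plexus, Gfap of astrocytes and P2ry12 of microglia had no count in any library, while the other 7 astrocyte and 7 microglia markers were detected. Cover of these genes by other genes is not given here, and their zeros do not show that they were not expressed. Markers of hippocampal pyramidal neurons were detected in every library, with a summed level of 8 genes of 905 to 1215 CPM. Those of dentate granule cells were at 453 to 740.0 CPM. Markers of neocortex and subiculum, at 251 to 419 CPM, and of thalamus and habenula, at 138 to 273 CPM, were detected too. No reference tissue was compared, so the tissue label was not tested.

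The first question was whether the tau transgene went with a different level of these genes in mice kept in normal air. In P301S normoxia the members together were lower than in WT normoxia. Their summed level was 1589, 1592, 1602, 1616 and 1715 CPM in the 5 P301S normoxia libraries. In WT normoxia it ranged from 1697 to 1833 CPM with a median of 1780 CPM. All but 1 of the P301S normoxia libraries lay below every WT normoxia library, and the groups overlapped through the highest P301S library and the lowest WT library. As a share of all counts, the members took 0.160% to 0.170% in P301S normoxia and 0.173% to 0.187% in WT normoxia. In bulk tissue, fewer cells of a type that expresses these genes strongly and less RNA per cell cannot be told apart.

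**Figure D1:**
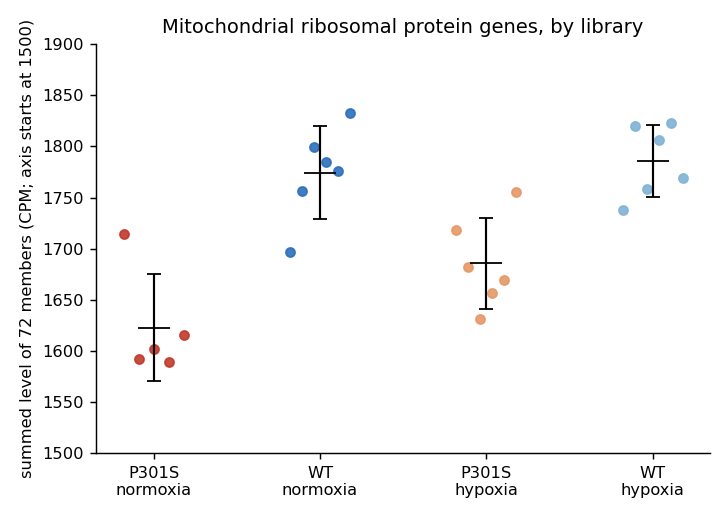
Summed level of the 72 tested members (CPM, on an axis that does not start at 0) in each library of the 4 groups. Points are libraries, the long bar is the mean and the whiskers are the SD; the P301S normoxia libraries sit between 1589 and 1715 CPM, and the WT normoxia libraries between 1697 and 1833 CPM.

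Gene by gene, 16 of the 72 tested members were lower in P301S normoxia than in WT normoxia and none was higher, at an adjusted p below 0.05. Here and below the adjusted p comes from edgeR's quasi-likelihood test, with Benjamini-Hochberg adjustment over all 17788 tested genes. Of all tested genes, 3.78% were called lower and 2.57% higher in the same comparison. The log2 fold change was negative for 65 of the 72 members, against 47.7% of all tested genes. The median log2 fold change was -0.14 over the members and 0.0097 over all tested genes. Without regard to adjustment, 37 members had a p below 0.05, 35 of them lower and 2 higher, against 22.8% of all tested genes. DESeq2 on the same genes called 22 members lower and 1, Mrps9, higher, where it called 5.67% of all tested genes lower and 3.54% higher.

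The small-subunit protein Mrps12, the counterpart of the bacterial S12 protein of the decoding centre, showed the largest fall. Its gene (ENSMUSG00000045948) lies on chromosome 7 from 28739641 to 28741820 on the minus strand (GRCm38). Mrps12 had 15.9, 16.1, 16.3, 16.7 and 19.1 CPM in P301S normoxia. In WT normoxia it ran from 18.9 to 25.5 CPM with a median of 22.8 CPM. The groups overlapped only at the highest P301S library and the lowest WT library. The log2 fold change was -0.42 (SE 0.08, adjusted p = 0.00474), so that the level fell by 25.4%.

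Mrps26, a mitochondria-specific protein of the small subunit, had 26.2, 27.4, 27.8, 30.9 and 36.3 CPM in P301S normoxia. It ran from 32.1 to 41.0 CPM in WT normoxia, with a median of 36.4 CPM. A single P301S library reached into the WT range and the other 4 lay under it. Mrps26 fell by 0.31 on the log2 scale (SE 0.07, adjusted p = 0.0149). The other small-subunit members called were Mrps24, a homologue of bacterial S3, with a log2 fold change of -0.28 (SE 0.08, adjusted p = 0.0312), and Mrps7, a homologue of bacterial S7 in the head of the subunit. Mrps7 was outside the naming rule and was chosen after its values were seen, with a log2 fold change of -0.19 (SE 0.05, adjusted p = 0.0395). In all, 4 of 25 tested small-subunit members were called lower, and their median log2 fold change was -0.12.

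Among the 46 tested large-subunit members, 12 were called lower and the median log2 fold change was -0.16. Mrpl57, a short mitochondria-specific protein, had 12.9, 13.4, 13.6, 14.4 and 17.4 CPM in P301S normoxia. Its WT normoxia values ran from 15.8 to 19.6 CPM with a median of 18.3 CPM. The highest P301S library overlapped with the lowest WT library. Mrpl57 (ENSMUSG00000021967, chromosome 14, 57826234 to 57829296, plus strand) fell by 0.34 on the log2 scale (SE 0.07, adjusted p = 0.00612).

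Mrpl49, another mitochondria-specific protein, and Mrpl9, the counterpart of bacterial L9, separated the groups fully. Mrpl49 (ENSMUSG00000007338, chromosome 19, 6053630 to 6057751, minus strand) had 27.4, 28.7, 28.8, 29.3 and 29.6 CPM in P301S normoxia. It ran from 31.7 to 37.9 CPM, with a median of 33.6 CPM, in WT normoxia. Mrpl9 (ENSMUSG00000028140, chromosome 3, 94443318 to 94451130, plus strand) had 26.2, 26.5, 26.8, 27.9 and 28.2 CPM in P301S normoxia. In WT normoxia its range was 30.4 to 32.6 CPM and its median 31.5 CPM. Every P301S library was below every WT library for both genes. The log2 fold change was -0.24 for Mrpl49 (SE 0.05, adjusted p = 0.00653) and -0.21 for Mrpl9 (SE 0.04, adjusted p = 0.00844). Mrpl16, Mrpl51, Mrpl52 and Mrps2 were likewise lower in every P301S library, which makes 6 members, against 1.72% of all tested genes. Of these, Mrpl16 and Mrps2 were not called, at adjusted p = 0.0566 and 0.0876.

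The other 9 large-subunit calls covered several parts of the particle. Mrpl28, Mrpl24, Mrpl36 and Mrpl30 are homologues of bacterial proteins. Mrpl28 averaged 22.4 ± 2.35 CPM in P301S normoxia and 28.2 ± 2.08 CPM in WT normoxia (SD, n = 5 and 6). Mrpl24 averaged 27.2 ± 2.72 CPM in P301S normoxia and 32.1 ± 1.59 CPM in WT normoxia. Mrpl38, Mrpl43, Mrpl51, Mrpl52 and Mrpl54 are mitochondria-specific, and Mrpl38 forms part of the central protuberance, the crown of the large subunit. Mrpl38 averaged 32.5 ± 3.76 CPM in P301S normoxia and 39.3 ± 2.10 CPM in WT normoxia. Across these 9 genes the log2 fold changes lay between -0.33 for Mrpl28 and Mrpl52 and -0.17 for Mrpl51, which was named after its values were seen, and the adjusted p between 0.0106 and 0.0428. Other genes cover 25.7% of the gene body of Mrpl24 (Rrnad1) and 19.4% of that of Mrps24 (Urgcp), and at most 7.65% of those of the other 14 members called in normoxia. By origin, 8 of 42 tested members classed here as bacterial and 8 of 29 classed as mitochondria-specific were called lower. Median log2 fold changes were -0.14 and -0.12 for the bacterial and the mitochondria-specific set. The bacterial set holds Mrpl55, whose bacterial counterpart is doubtful.

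**Figure D2:**
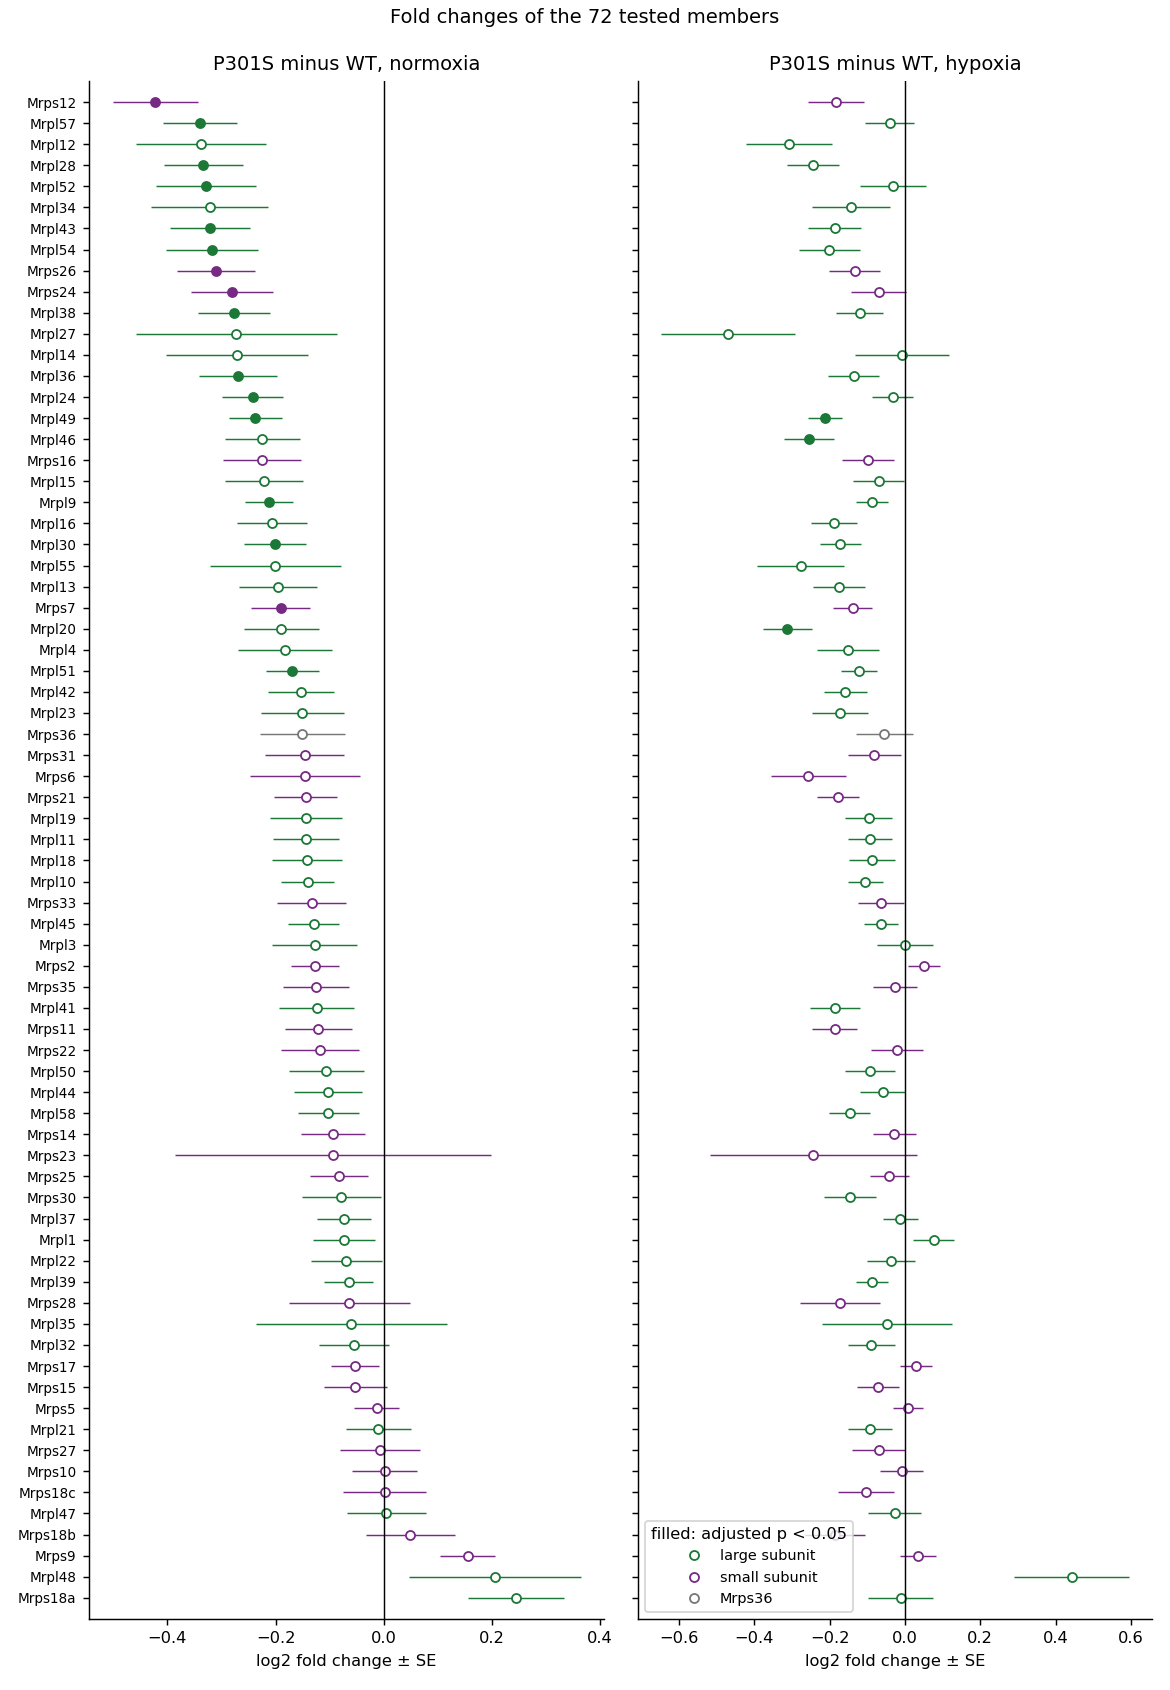
Log2 fold change of each of the 72 tested members (horizontal axis, whiskers SE) for P301S minus WT in normoxia (left) and in hypoxia (right), with members in the same order in both panels. Filled points have an adjusted p below 0.05: 16 in normoxia and 3 in hypoxia, all on the negative side.

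A few members went the other way. Mrps9, the homologue of bacterial S9, had 64.3, 68.1, 68.3, 69.9 and 71.4 CPM in P301S normoxia, against a range of 56.2 to 66.4 CPM and a median of 61.4 CPM in WT normoxia. Its log2 fold change was 0.16 (SE 0.05), and it did not pass the test (adjusted p = 0.0669). Mrps18a averaged 5.95 ± 0.722 CPM in P301S normoxia and 5.03 ± 0.304 CPM in WT normoxia (SD, n = 5 and 6), with a log2 fold change of 0.24 (SE 0.09, adjusted p = 0.0954). Mrps36, outside the ribosome, was not called, at -0.15 on the log2 scale (SE 0.08, adjusted p = 0.261).

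**Figure D3:**
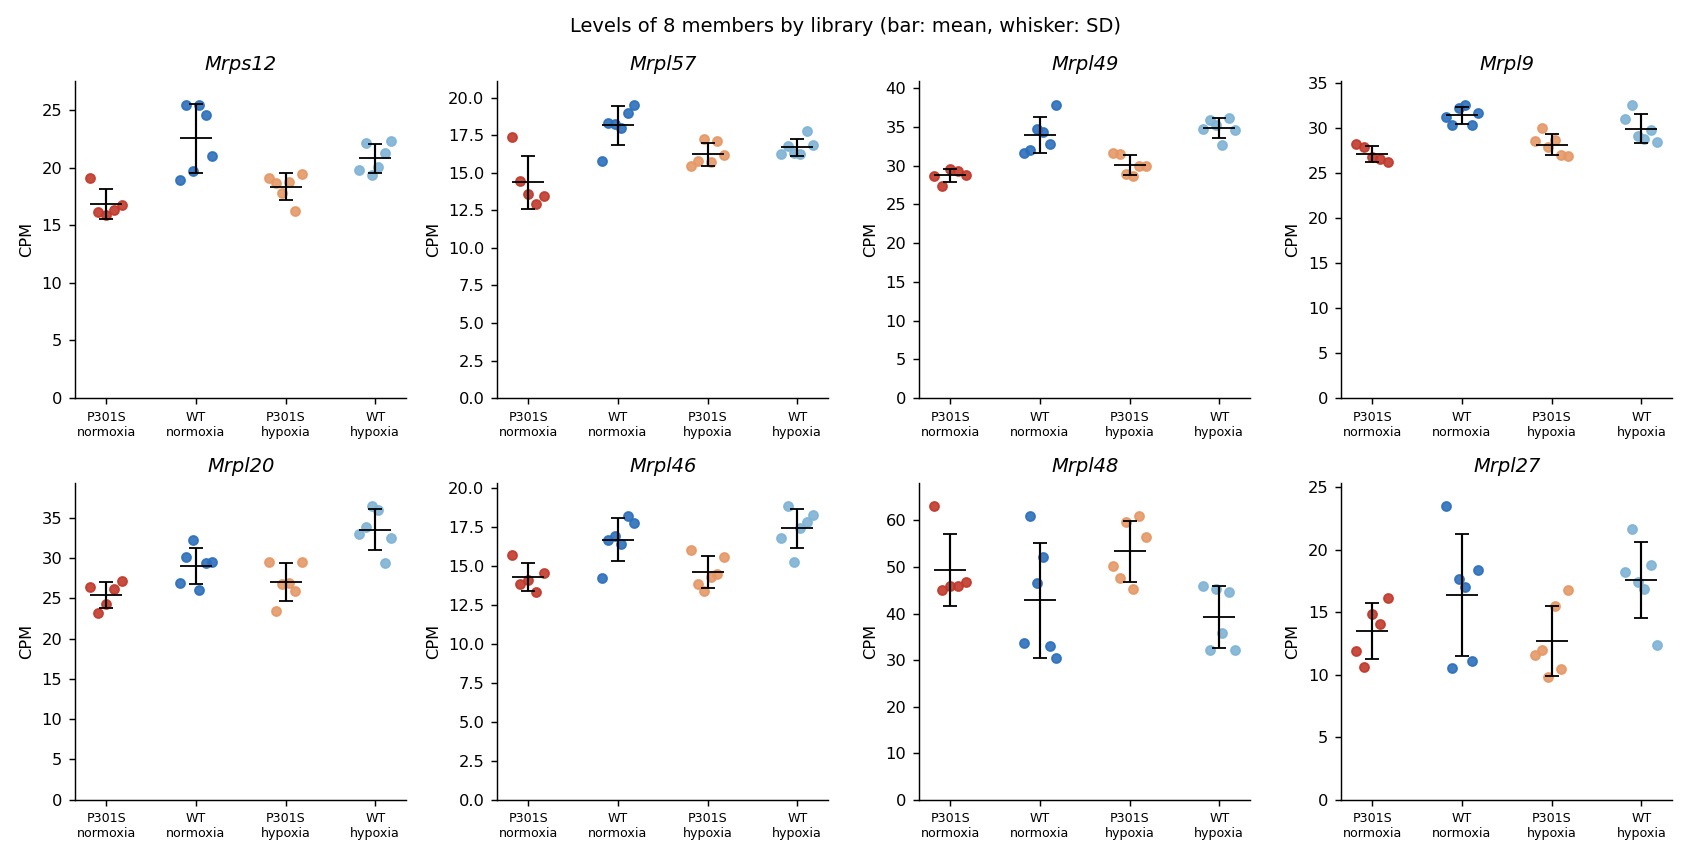
Level (CPM, axes from 0) of 8 members in each library of the 4 groups, with the mean (bar) and SD (whisker). Mrps12, Mrpl57, Mrpl49 and Mrpl9 were called lower in P301S normoxia, and Mrpl49, Mrpl20 and Mrpl46 in P301S hypoxia; Mrpl27 runs from 9.80 to 23.5 CPM over all libraries, and 1 P301S normoxia library has 63.1 CPM of Mrpl48, above 4 at 45.1 to 46.8 CPM.

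The calls depended on which libraries entered. Leaving out 1 library at a time gave 7 to 24 called members, in fits that called 1.1% to 6.83% of all tested genes lower. The count was 7 without P301S normoxia replicate 2, 9 without replicate 4, and 10 without replicate 3 or replicate 5. It was 10 without WT normoxia replicate 5 and 9 without WT normoxia replicate 6, and it was 24 without P301S normoxia replicate 1 or without WT normoxia replicate 1. In the fit without WT normoxia replicate 1, 23 of the 24 were lower and 1, Mrps9, was higher. Mrps12, Mrpl57, Mrpl49, Mrpl9, Mrpl28, Mrpl43 and Mrps26 were called in all 11 of these fits. Fitting the normoxia groups alone left 4 calls, Mrps12, Mrpl49, Mrpl9 and Mrpl28, where 1.13% of all tested genes were called lower. All 14 choroid plexus markers tested had a negative log2 fold change between the genotypes, with a median of -0.43, and none was called by edgeR or had an unadjusted p below 0.05. With their score as a covariate the same 16 members were called. Without the 6 libraries lowest in those markers, 4 were called, Mrps12, Mrpl57, Mrpl49 and Mrpl28, against 1.06% of all tested genes called lower. The median log2 fold change was then -0.15. Of those 6 libraries only WT normoxia replicate 4 was in normoxia, and leaving it out alone gave 13 calls. The others were WT hypoxia replicates 1, 4 and 5 and P301S hypoxia replicates 1 and 4. Among interneuron markers, 2 of 8 were called lower in P301S normoxia, against 3.78% of all tested genes. The summed level of the 8 was 700 to 882 CPM (median 757), against 722 to 847 CPM (median 789) in WT normoxia. Of 8 neocortex and subiculum markers 1 was called higher, against 2.57% of all tested genes. Sums of the 8 were 328 to 397 CPM (median 366) in P301S normoxia and 291 to 340 CPM (median 317) in WT normoxia. Among dentate granule cell markers 1 of 8 was called lower, with sums of 453 to 605 CPM in P301S normoxia and 461 to 572 CPM in WT normoxia. The part of the interneuron, the neocortex and subiculum and the dentate granule cell markers in the members' result was not tested.

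Gene length moved with the genotype difference. Across all 17788 tested genes, Spearman's rho between the log2 fold change in normoxia and gene-body length was 0.40, so that shorter genes tended to lower values in P301S mice. Across the 72 members it was 0.57, given as a description since all genes come from the same libraries. Members are short, with a median gene body of 8060.5 bases, against 22317 bases for all tested genes. When all tested genes were split into 10 bins of length, the 6 members in the shortest bin (up to 2915 bases) had a median log2 fold change of -0.32, against -0.17 for all 1779 genes of that bin. The 21 members of the second bin had -0.20, against -0.11 for the bin, and the 21 of the third bin had -0.13, against -0.075. In each of the 8 bins that held a member, the members' median was below that of the bin.

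With each library's trend in length and GC content removed, 6 members were called lower, against 1.76% of all tested genes. They were Mrps12, Mrpl57, Mrpl49, Mrpl9 and Mrpl38, together with Mrpl13, a homologue of bacterial L13 that was not among the 16 and was named after its values were seen. The median log2 fold change was then -0.12 over the members and -0.024 over all tested genes. With length alone removed, a choice made after the data were seen, the calls were Mrps12, Mrpl57 and Mrpl38, against 1.22% of all tested genes called lower, and the median was -0.11. For Mrps12 the log2 fold change was -0.27 with both trends removed, in place of -0.42.

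**Figure D4:**
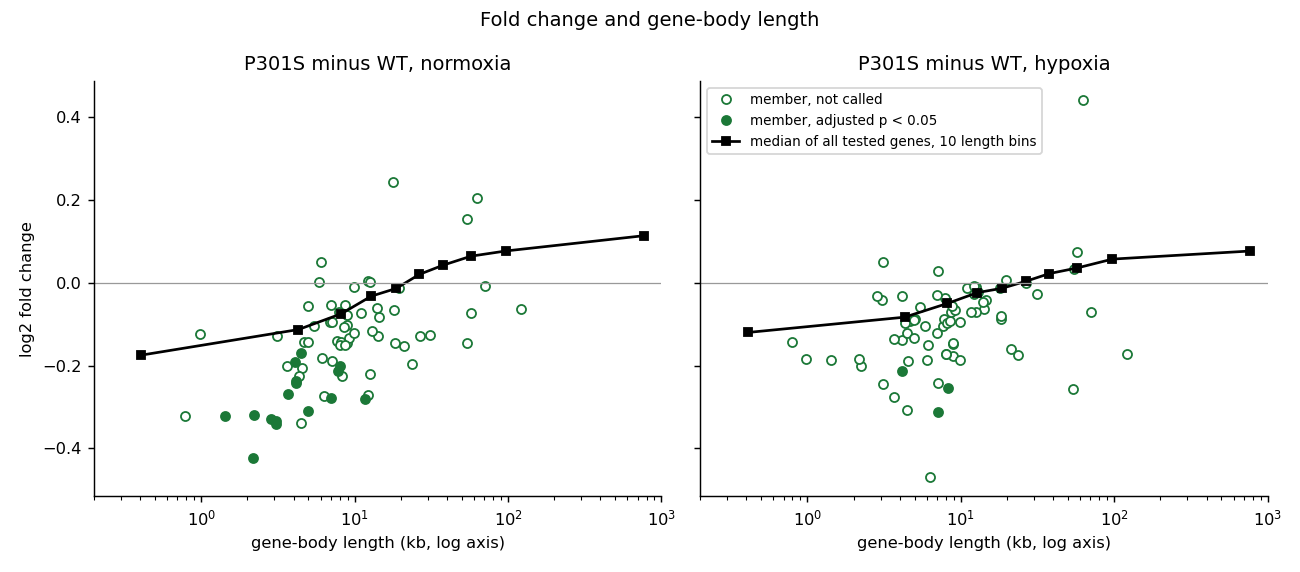
Log2 fold change of P301S minus WT against gene-body length (kilobases, log axis) for the 72 tested members in normoxia (left) and hypoxia (right). Filled circles are called members, and the black line joins the medians of all tested genes in 10 bins of length, which rise from -0.17 in the shortest bin to 0.11 in the longest in normoxia.

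The second question was whether the genotype difference was present under hypoxia. In P301S hypoxia, 3 members were called lower than in WT hypoxia and none higher, where 1.34% of all tested genes were called lower and 0.528% higher. The sign was negative for 65 of the 72, against 49.9% of all tested genes, and the median log2 fold change was -0.093, against 0.00042. Unadjusted p was below 0.05 for 26 members, 25 lower and 1 higher, against 18.2% of all tested genes. DESeq2 called 8 members lower and none higher, the same 3 with Mrpl16, Mrpl28, Mrpl30, Mrps11 and Mrps21, where it called 2.74% of all tested genes lower. The summed level of the members ran from 1632 to 1755 CPM in P301S hypoxia, with a median of 1676 CPM. In WT hypoxia it ran from 1738 to 1823 CPM, with a median of 1787 CPM. The ranges overlapped through 1 P301S library.

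All 3 called genes belong to the large subunit. Mrpl20, the counterpart of bacterial L20, which in bacteria binds the ribosomal RNA early in assembly, ran from 23.4 to 29.6 CPM with a median of 26.9 CPM in P301S hypoxia. In WT hypoxia Mrpl20 ran from 29.4 to 36.4 CPM with a median of 33.5 CPM. The ranges only just overlapped. Mrpl20 (ENSMUSG00000029066, chromosome 4, 155802878 to 155809975, plus strand) fell by 0.31 on the log2 scale (SE 0.07, adjusted p = 0.0166). In normoxia its log2 fold change was -0.19 (SE 0.07, adjusted p = 0.101).

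Mrpl49 was the only member called in both conditions. It ran from 28.6 to 31.7 CPM, with a median of 30.0 CPM, in P301S hypoxia. In WT hypoxia it ran from 32.6 to 36.2 CPM, with a median of 35.0 CPM. Again no P301S library reached the lowest WT library. The log2 fold change was -0.21 (SE 0.05, adjusted p = 0.0195). The test of the difference between the genotype effects in hypoxia and in normoxia gave 0.02 (SE 0.07, adjusted p = 0.949) on the log2 scale for Mrpl49.

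Mrpl46, a mitochondria-specific protein of the central protuberance, ran from 13.4 to 16.0 CPM in P301S hypoxia (median 14.4 CPM) and from 15.3 to 18.8 CPM in WT hypoxia (median 17.6 CPM). Its gene (ENSMUSG00000030612, chromosome 7, 78775236 to 78783531, minus strand) lies beside Mrps11, and 17.96% of it is covered by Mrps11 and Gm45059. Mrpl46 fell by 0.25 on the log2 scale (SE 0.07, adjusted p = 0.0468). In normoxia it just missed the threshold, at -0.22 (SE 0.07, adjusted p = 0.0537). Mrpl43 was lower in every P301S hypoxia library, at 21.01 to 22.4 CPM, than in every WT hypoxia library, at 22.5 to 27.0 CPM, but was not called (log2 fold change -0.19, SE 0.07, adjusted p = 0.158). With Mrpl49 this made 2 members that were lower in every P301S hypoxia library, against 1.25% of all tested genes.

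No member was called in the test of the difference between the genotype effects, where 0.0394% of all tested genes were called. The genes called in normoxia, which were chosen by their p there, had unlike values under hypoxia. Mrps12 had a log2 fold change of -0.18 (SE 0.08, adjusted p = 0.197) and Mrpl57 of -0.04 (SE 0.07, adjusted p = 0.794). Mrpl24 had -0.03 (SE 0.05, adjusted p = 0.804), whereas Mrpl28 had -0.24 (SE 0.07, adjusted p = 0.0655). Leaving out 1 library at a time gave 1 to 5 calls, in fits that called 0.389% to 2.7% of all tested genes lower. There was 1 without WT hypoxia replicate 2, where only Mrpl20 was called, and there were 5 without P301S hypoxia replicate 6. Mrpl20 was called in all 12 of these fits, Mrpl49 in 11 and Mrpl46 in 3. With the length and GC trend removed, 1 call was left, Mrpl20, where 0.585% of all tested genes were called lower. There was none with length alone removed and none without the 6 libraries lowest in choroid plexus markers, where the medians over the members were -0.056 and -0.11 and 0.304% and 0.0501% of all tested genes were called lower. Those 6 included WT hypoxia replicates 1, 4 and 5 and P301S hypoxia replicates 1 and 4. The part of the smaller number of libraries was not tested.

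Mrpl48 and Mrpl27 had genotype differences under hypoxia that exceeded those of the 3 called genes and did not pass the test. Mrpl48, a mitochondria-specific protein of the central protuberance, ran from 45.4 to 61.0 CPM in P301S hypoxia (median 53.3 CPM) and from 32.1 to 46.0 CPM in WT hypoxia (median 40.2 CPM). Its log2 fold change was 0.44 (SE 0.15, adjusted p = 0.127). In normoxia it had 45.1, 45.9, 46.0, 46.8 and 63.1 CPM in P301S mice, and 30.5 to 61.0 CPM in WT mice. Across all 23 libraries no P301S library was under 45.1 CPM, whereas WT libraries reached down to 30.5 CPM. Mrpl27, the homologue of bacterial L27 next to the peptidyl transferase centre, ran from 9.80 to 16.8 CPM in P301S hypoxia and from 12.4 to 21.6 CPM in WT hypoxia, with a log2 fold change of -0.47 (SE 0.18, adjusted p = 0.162). It was chosen for its spread, after its values were seen.

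Spread inside groups differed between members. The pooled SD of log2 CPM within groups was 0.107 for the median member, against 0.170 for the median tested gene. It was highest for Mrps23, at 0.534, with a mean level of 2.89 CPM. Mrpl27 had 0.331, Mrpl35 0.316, Mrpl48 0.279 and Mrpl14 0.235, at mean levels of 15.1, 21.01, 46.1 and 16.0 CPM. Each of these 4 had at least 237 counts in every library, whereas Mrps23 had 27 to 126. Mrpl35 and Mrpl14 were named after their values were seen.

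The third question was what hypoxia did within each genotype. In WT mice no member was called by edgeR or by DESeq2, and 4 members had an unadjusted p below 0.05, 2 lower and 2 higher. Of all tested genes, 0.0731% were called in either direction by edgeR and 0.849% by DESeq2, and 11.6% had such a p. Negative values were found for 27 of the 72 members, against 48.6% of all tested genes. The median log2 fold change was 0.014 over the members and 0.0040 over all tested genes. Mrpl24, the counterpart of bacterial L24 near the exit of the peptide tunnel, had the lowest p of the members. It ran from 27.3 to 29.6 CPM in WT hypoxia (median 28.2 CPM) and from 30.7 to 34.4 CPM in WT normoxia (median 31.6 CPM). Every WT hypoxia library was below every WT normoxia library, as in 0.394% of all tested genes. The log2 fold change was -0.18 (SE 0.05, adjusted p = 0.174). Mrpl20 ran from 29.4 to 36.4 CPM in WT hypoxia and from 26.0 to 32.3 CPM in WT normoxia, with a log2 fold change of 0.21 (SE 0.07, adjusted p = 0.194). Sample titles of WT libraries carry numbers of unknown meaning that differ between the conditions, so whatever they stand for cannot be told apart from hypoxia.

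In P301S mice the members tended upward under hypoxia, with no call by edgeR. Of the 72, 57 had a positive log2 fold change and 15 a negative one, where 50.9% of all tested genes were negative. The median was 0.053, against -0.0033 over all tested genes. An unadjusted p below 0.05 was reached by 11 members, 10 higher and 1 lower, against 13.8% of all tested genes, and 0.41% of all tested genes were called in either direction, with 0.18% called higher. DESeq2 called 1 member higher, Mrpl1, where it called 1.16% of all tested genes higher. Markers of several cell types leaned to one side in the same comparison. The 8 dentate granule cell markers were all positive, with a median log2 fold change of 0.27, none called by edgeR and 2 with an unadjusted p below 0.05, and summed to 561 to 740.0 CPM in P301S hypoxia, against 453 to 605 CPM in P301S normoxia. The 8 interneuron markers were all positive too, with a median of 0.088 and 1 called higher, at 717 to 998 CPM in P301S hypoxia and 700 to 882 CPM in P301S normoxia. All 8 oligodendrocyte markers were negative, with a median of -0.18, none called by edgeR and 1 with an unadjusted p below 0.05, at 2960 to 4555 CPM in P301S hypoxia and 4124 to 4945 CPM in P301S normoxia. All 14 choroid plexus markers were negative, with a median of -0.65, and none was called by edgeR or had an unadjusted p below 0.05. The part of these markers in the members' values was not tested. The P301S normoxia libraries, which were low in the genotype comparison in normoxia, also serve here, so that these comparisons are not independent.

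Mrpl1 (ENSMUSG00000029486, chromosome 5, 96209493 to 96266727, plus strand) is the counterpart of bacterial L1 in the stalk that handles the outgoing tRNA. It ran from 22.7 to 27.2 CPM, with a median of 25.3 CPM, in P301S hypoxia. In P301S normoxia it had 20.1, 20.7, 21.6, 21.7 and 22.5 CPM. Every P301S hypoxia library was above every P301S normoxia library, as was also the case for Mrpl43, against 1.01% of all tested genes. The log2 fold change of Mrpl1 was 0.24 (SE 0.06, adjusted p = 0.0591). With the length and GC trend removed it was called, together with Mrpl38, where 0.77% of all tested genes were called higher. Without P301S normoxia replicate 1, 1 member was called higher, Mrpl57. The share of all tested genes called in that fit is not given, so this call stands without a background.

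Mrps6, the homologue of bacterial S6, was the member with a lower value at an unadjusted p below 0.05. It ran from 15.0 to 20.8 CPM in P301S hypoxia (median 17.9 CPM) and had 19.0, 20.96, 23.5, 24.1 and 25.3 CPM in P301S normoxia. Its log2 fold change was -0.32 (SE 0.10, adjusted p = 0.154) in P301S mice and -0.21 (SE 0.10, adjusted p = 0.398) in WT mice. Slc5a3 and Gm16310 cover most of its gene body, so these values rest on the uncovered part of Mrps6.

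The last question was whether the hypoxia effect differed between the genotypes. No member was called by edgeR or DESeq2, and 6 had an unadjusted p below 0.05, 5 positive and 1 negative, against 9.43% of all tested genes. Of all tested genes, 0.0394% were called in either direction by edgeR and 0.292% by DESeq2. The median of the difference, P301S effect minus WT effect, was 0.039 on the log2 scale over the members and -0.0036 over all tested genes. Mrpl57 had the lowest p of the members. Its log2 fold change under hypoxia was 0.18 (SE 0.07) in P301S mice and -0.12 (SE 0.06) in WT mice, which gave a difference of 0.30 (SE 0.09, adjusted p = 0.336). Levels of Mrpl57 were therefore closer together under hypoxia, at 16.2 ± 0.770 CPM in P301S hypoxia and 16.7 ± 0.577 CPM in WT hypoxia (SD, n = 6 each), than in normoxia, at 14.4 ± 1.78 CPM in P301S mice and 18.2 ± 1.28 CPM in WT mice. Mrps2, the homologue of bacterial S2, had a difference of 0.18 (SE 0.06, adjusted p = 0.364) and Mrpl24 one of 0.21 (SE 0.08, adjusted p = 0.385).

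Other genes of mitochondrial translation were read beside the members, and their counts stand against 3.78% of all tested genes called lower and 2.57% called higher in normoxia. Of 5 tested mitoribosome proteins with names outside the Mrpl and Mrps series, 1 was lower in P301S normoxia than in WT normoxia, Aurkaip1. Aurkaip1 averaged 31.5 ± 3.39 CPM in P301S normoxia and 37.0 ± 1.79 CPM in WT normoxia (SD, n = 5 and 6), a log2 fold change of -0.23 (SE 0.07, adjusted p = 0.0476). It was lower under hypoxia too, at 32.0 ± 3.44 CPM in P301S mice and 39.1 ± 1.62 CPM in WT mice (log2 fold change -0.29, SE 0.07, adjusted p = 0.0244).

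Of 22 tested assembly factors 1 was lower in P301S normoxia, Rbfa, which matures the small-subunit RNA (log2 fold change -0.23, SE 0.07, adjusted p = 0.0453), and none was higher. Of 15 tested translation factors 1 was lower, Tufm, the elongation factor that brings aminoacyl-tRNA to the ribosome. Tufm averaged 36.5 ± 2.82 CPM in P301S normoxia and 44.2 ± 2.28 CPM in WT normoxia, a log2 fold change of -0.28 (SE 0.06, adjusted p = 0.00653). None of 17 tested mitochondrial tRNA synthetase genes was called by edgeR, and 4 had an unadjusted p below 0.05, against 22.8% of all tested genes. Of 13 tested genes of mitochondrial transcription and its regulators 1 was higher, Yy1, the factor whose motif was counted above. Yy1 averaged 105.0 ± 7.14 CPM in P301S normoxia and 91.6 ± 4.48 CPM in WT normoxia (log2 fold change 0.20, SE 0.06, adjusted p = 0.0370). In the hypoxia comparisons of either genotype, no gene of these 5 lists was called by edgeR, and an unadjusted p below 0.05 was reached by at most 2 genes of a list in WT mice and 4 in P301S mice.

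The messages that the mitoribosome translates, and those of nuclear genes whose subunits join its products, were measured as well. These values are RNA levels and not protein. Of the 13 mitochondrially encoded protein genes none was called by edgeR in normoxia, and the median log2 fold change was 0.0089. In that comparison 3 had an unadjusted p below 0.05, against 22.8% of all tested genes. Under hypoxia mt-Co2, a subunit of cytochrome c oxidase, was lower in P301S mice, at 118 ± 10.7 CPM, than in WT mice, at 149 ± 20.6 CPM (SD, n = 6 each; log2 fold change -0.34, SE 0.07, adjusted p = 0.0169). The complex I subunit genes mt-Nd4 and mt-Nd1 were higher in P301S hypoxia, with log2 fold changes of 0.22 (SE 0.06, adjusted p = 0.0482) and 0.21 (SE 0.06, adjusted p = 0.0497). Of all tested genes, 1.34% were called lower and 0.528% higher under hypoxia. In the same comparison 7 of the 13 had an unadjusted p below 0.05, 6 higher and 1 lower, against 18.2% of all tested genes, and the median log2 fold change was 0.15. The median of the 13 genes in a library, on a log2 scale centred on the mean of all libraries, was 0.33 in P301S hypoxia replicate 5 and -0.065 to 0.12 in the other P301S hypoxia libraries. Without that replicate mt-Co2 was still called lower, none of the 13 was called higher and the median log2 fold change was 0.040. Leaving out 1 library at a time, a choice made after the data were seen, mt-Co2 was called in all 12 fits, and 9 of the 12 called none of the 13 genes higher.

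Among the 79 tested nuclear genes for oxidative phosphorylation subunits, 42 were called lower in P301S normoxia and 16 in P301S hypoxia. Their median log2 fold changes were -0.22 and -0.17. Of all tested genes, 3.78% and 1.34% were called lower in these comparisons. The 76 tested cytosolic ribosomal protein genes gave 42 and 18 lower calls and medians of -0.22 and -0.21. The members, at 16 and 3 lower calls of 72 and medians of -0.14 and -0.093, had negative medians of smaller size, and the difference between the lists was not tested. Both other lists are made of short genes too, with median gene bodies of 7284 bases for the oxidative phosphorylation genes and 3226.5 bases for the cytosolic ribosomal protein genes. Under hypoxia in P301S mice 1 gene of the oxidative phosphorylation list was called higher and none of the cytosolic ribosomal protein genes. An unadjusted p below 0.05 was reached by 16 and 1 genes of these lists. Of all tested genes, 0.18% were called higher and 13.8% had such a p.

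**Figure D5:**
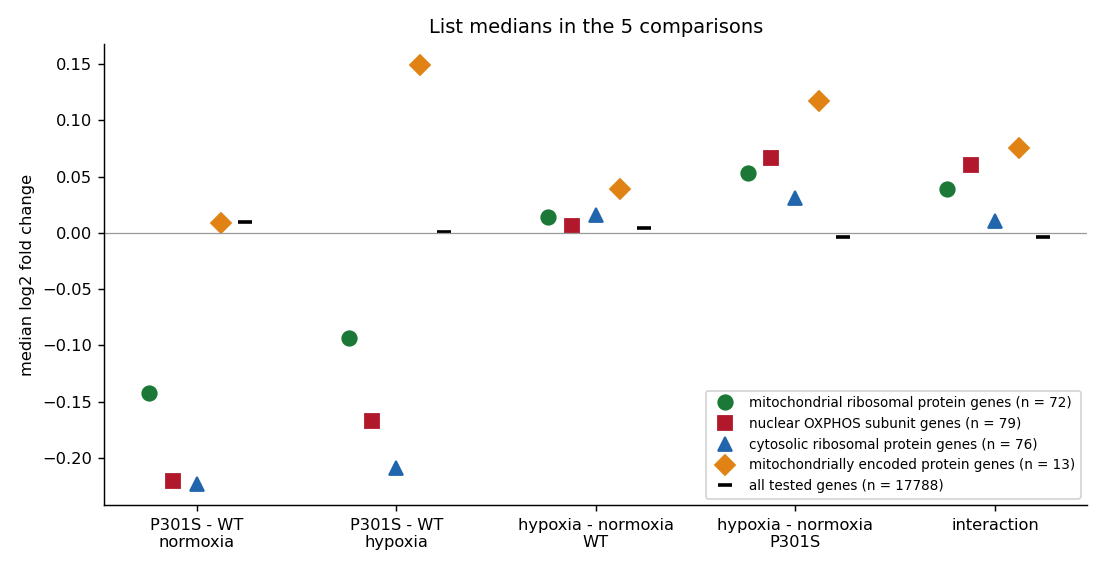
Median log2 fold change (vertical axis) of the mitochondrial ribosomal protein genes, 3 comparison lists and all tested genes in each of the 5 comparisons. In P301S minus WT in normoxia the members' median is -0.14, between those of the other 2 nuclear lists (both -0.22) and that of all tested genes (0.0097).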

How the data were processed

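RNA-seq of hippocampus was deposited as 1 table of counts per library, 23 in all. Per the file headers, the authors counted read pairs with featureCounts 1.6.2 over whole gene bodies, introns included, with the Ensembl 90 annotation of GRCm38 and no strand setting, from alignments whose file names mark duplicates as removed. Per the labels' protocols, the library kit was a stranded one for mRNA, and per the submitters' processing notes HISAT2 and DESeq2 1.6.3 were used. Introns in the counts mean that unspliced RNA adds to a level, and genes that share bases lose reads.

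The deposited counts were tested here with edgeR 4.0.16 (R 4.3.3, limma 3.58.1): filterByExpr with a minimum count of 10, TMM factors (0.961 to 1.03), and a robust quasi-likelihood fit of 4 group means to all 23 libraries. Tests were two-sided in 5 contrasts, with Benjamini-Hochberg adjustment over 17788 genes and a threshold of 0.05. SE is the absolute log2 fold change over the square root of the F statistic. Library totals of 19.1 to 25.8 M gave 27 to 1796 counts per tested member and library. The procedure was tested on simulated data. Symbols came from GENCODE M21 for 52403 of 52636 identifiers. Gene length is the length of the gene body in the count tables, and trends in length and GC were removed with splines of 5 degrees of freedom. Alternatives were RLE factors, DESeq2 1.42.0, other filters, the groups compared alone, length and GC offsets, a choroid plexus score as covariate or the 6 lowest libraries left out, and each library left out.

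The members and gene lists were chosen with earlier results of these data known. Genes named were the genotype checks, the 12 members with the lowest p in each contrast, the 4 highest and 4 lowest per exonic kilobase, members removed by the filter or over 50% covered by other genes, and up to 4 genes of each pathway list with the lowest p. Replicates were numbered in accession order, and the numbers only name libraries.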

Additional observations from a re-analysis of the deposited data

Results flagged for a closer look

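In 160 sets of values, the highest or lowest library of each group was compared with the others by its gap to the nearest library, and chance alone gives such a gap in about 1 group in 20. A large gap was found in 10. The summed level of the members in P301S normoxia was 1715 CPM in replicate 1, with the next library at 1616 CPM. The same group held the highest values of Mrpl12 at 12.7 CPM (next 8.63), Mrpl45 at 34.2 CPM (next 30.5), Mrpl48 at 63.1 CPM (next 46.8) and Mrps12 at 19.1 CPM (next 16.7). P301S normoxia replicate 1 was the highest library of its group for 36 of the 72 tested members.

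In P301S hypoxia, Mrpl24 reached 30.1 CPM in 1 library (next 27.8), Mrpl36 dropped to 11.4 CPM in 1 library (next 13.4), and Mrps9 to 61.7 CPM (next 68.4). In WT hypoxia, Mrpl15 reached 27.5 CPM (next 23.8), and in WT normoxia Mrpl52 reached 16.2 CPM (next 14.3).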

How the results depend on the processing

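In P301S against WT in normoxia, 16 members were called lower, against 3.78% of all tested genes. The count was 4 with the groups compared alone, where 1.13% of all tested genes were called lower. It was 6 with the length and GC trend removed (1.76%) and 3 with the length trend alone removed (1.22%). It was 4 without the 6 libraries lowest in choroid plexus markers (1.06%). It ranged from 7 to 24 when 1 library was left out, in fits that called 1.1% to 6.83% of all tested genes lower. It was 12 with all genes that had a count and 18 with a stricter filter. The share of all tested genes called is not given for these filters, so these counts stand without a background. In P301S against WT in hypoxia, the 3 calls became 8 with DESeq2, where 2.74% of all tested genes were called lower. They became 1 with the length and GC trend removed (0.585%), 0 with length alone removed (0.304%) and 0 without the 6 libraries (0.0501%). The range was 1 to 5 when 1 library was left out (0.389% to 2.7%). For hypoxia in P301S mice, 0 calls became 1 with DESeq2, where 1.16% of all tested genes were called higher. They became 2 with the length and GC trend removed (0.77%). With length alone removed there was 1, and there were 0 to 1 when 1 library was left out. For these last fits the share of all tested genes called is not given, so these counts stand without a background. For hypoxia in WT mice and for the difference between the genotypes, no alternative gave a call. The cause of these changes was not tested. The fits that leave libraries out also hold fewer of them, and the part of that was not tested either.

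The median log2 fold change over the members stayed negative in every alternative run for both genotype comparisons. When 1 library was left out it ran from -0.16 to -0.13 in normoxia, from -0.12 to -0.082 in hypoxia, from 0.00023 to 0.032 for hypoxia in WT mice, from 0.040 to 0.067 for hypoxia in P301S mice and from 0.020 to 0.052 for the difference. The difference for Mrps9 changed sign, to 0.016 without the 6 libraries lowest in choroid plexus markers. Removal of the length trend alone and the legacy form of the edgeR test were chosen after the data were seen. No paired analysis was possible because replicate numbers follow accession order and pair no libraries across groups. Mrps23 had 27 to 126 counts per library and a pooled SD of log2 CPM within groups of 0.534. The part of depth in that spread was not tested.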
